A study of Mus musculus with 12 samples.

Results

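Vas deferens libraries of mice without an intact Hoxa9-Hoxa11 block were compared with the vas deferens libraries that keep at least 1 intact copy of this gene block. Of the 12 libraries of the series, 5 entered the comparison. The Hoxa-null pair consisted of a Hoxa-null library, in which both copies of Hoxa9, Hoxa10 and Hoxa11 are mutant, and a compound Hoxa-null library, which also carries 1 mutant copy of Hoxd9, Hoxd10 and Hoxd11. The 3 libraries called Hoxa-intact below were WT, Hoxd-null (2 mutant copies of the Hoxd block) and compound Hoxd-null, which is Hoxd-null with 1 mutant Hoxa copy and so is intact on 1 chromosome only. All mice were of a mixed CD1/129 background and 3 to 7 months old, and each library was made from total RNA pooled from 3 animals. The kind of mutant allele is not stated in the labels. There was 1 library per genotype, so no difference below has a replicate check, and no error or p-value is given.

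A gene was said to separate when both nulls lay at least 1 log2 unit (2-fold) above, or below, all 3 intact libraries. The values are log2 values centred gene by gene on the median of the 6 male libraries, the sixth being the WT caudal epididymis, so a value places a library against the other libraries for the same gene and says nothing of how abundant the gene is. Of 31669 genes listed, 12598 had the same value in all 5 vas libraries and were skipped. Among the 19071 others, 785 separated upward (4.12%) and 450 downward (2.36%). A minimum of 20 normalised reads in the highest vas library, applied where the level could be read, removed 107 of the higher and 73 of the lower genes, and left 16917 measured genes with 678 higher (4.01%) and 377 lower (2.23%). Of the 678 higher genes, 419 had no readable level and were not checked against this minimum. Of the 259 that could be read, 235 reached it through the nulls alone, and they could pass only by being high there. All counts below are over measured genes, and these 4.01% and 2.23% are the shares to set beside the count of any list under this rule. Null minus intact, the difference given for a gene, is the mean of the 2 nulls minus the mean of the 3 intact libraries.

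The vas deferens carries sperm from the tail of the epididymis to the urethra. It consists of a secretory and absorptive epithelium inside a thick coat of smooth muscle that contracts at ejaculation. Both ducts develop from the Wolffian duct, and posterior Hox genes, which encode homeodomain transcription factors, are known for setting the identity of its segments. Loss of Hoxa10 or Hoxa11 in mice is known to shift the proximal vas deferens toward the anatomy of the epididymis.

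Several libraries stood apart in ways that touch the results. Depth, recovered from the spacing of low values, differed 1.84-fold between the deepest (WT) and the shallowest (compound Hoxd-null) vas library. Both nulls were sequenced with the Hoxd-null library in lane 2 of run 0134, WT in lane 1 of that run and compound Hoxd-null in lane 7 of run 0136. Against the Hoxd-null library of their own lane alone, both nulls were higher for 1588 genes (9.39%) and lower for 848 (5.01%). Over all 19071 varying genes, leaving WT out gave 956 higher and 596 lower genes, and leaving compound Hoxd-null out gave 1269 and 676. Taken singly against all 3 intact libraries, the Hoxa-null library was higher for 842 genes (4.98%) and lower for 661 (3.91%), and the compound Hoxa-null library higher for 1268 (7.5%) and lower for 629 (3.72%). The WT library was the highest of the vas libraries for 2 prostate genes, Pbsn and Tgm4. Other gland genes went the other way, and 6 of 18 measured members of the seminal vesicle and prostate list were higher in both nulls, as described below. Pbsn, which encodes a prostate secretory protein, had 512.9 normalised reads in WT and 1 in compound Hoxa-null, and Tgm4, a prostate transglutaminase, was at 7.16 in WT and between -1.60 and 0.50 in the 4 other vas libraries. These 2 genes were chosen after their values were seen. General epithelial keratins and junction genes, 8 of 8 measured, and fibroblast genes, 9 of 9 measured, included no separating gene, with median null minus intact differences of 0.52 and -0.03. Over all measured genes that median was 0.02.

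**Figure D1:**
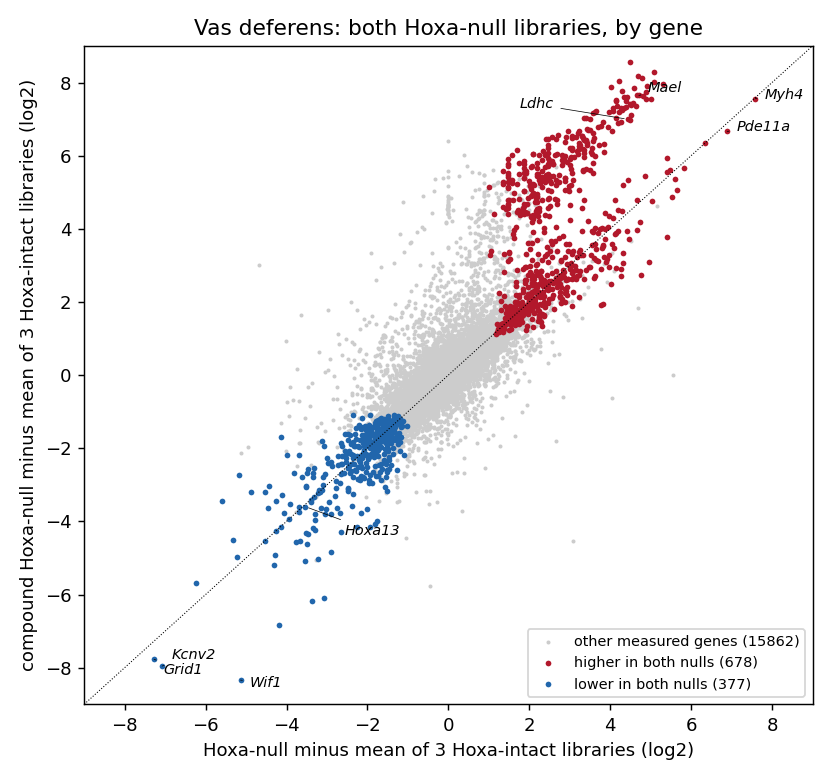
Each point is a measured gene, placed by its log2 difference from the mean of the 3 intact libraries in the Hoxa-null library (x axis) and in the compound Hoxa-null library (y axis); red genes (678) were higher and blue genes (377) lower in both nulls, and the dotted line marks equal differences. The red points form a group along the line and a second group above it, in which the compound Hoxa-null library exceeded the Hoxa-null library, whereas most blue points lie along the line.

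The higher genes fell into a group in which the nulls were alike and a group in which they were not. In 348 of the 678 (51.3%) the nulls differed by less than 1 log2 unit, with a median of 1.12 in Hoxa-null and 1.16 in compound Hoxa-null. In 317 (46.8%) the compound Hoxa-null library lay 1 or more log2 units above the Hoxa-null library, with medians of 4.15 and 1.10, and in 13 the order was the opposite. The median of the epididymis was 0.86 in the first group and 2.76 in the second. Of the 377 lower genes, 336 (89.1%) were within 1 log2 unit in both nulls, and the compound library was lower by 1 or more in 29 and higher in 12. The same rule applied to the Hoxd-null pair of the same 5 libraries gave 25 higher (0.148%) and 105 lower genes (0.621%). The Hoxa-null pair shared lane 2 of run 0134, whereas the Hoxd-null pair was split between that lane and lane 7 of run 0136. The part of lane and run in these counts was not tested.

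Among the targeted genes, Hoxa11 (Gene ID 15396, chromosome 6, start 52192105, mm9) separated downward. Its value was 1.17 in WT, 1.01 in Hoxd-null and 0.34 in compound Hoxd-null, against -1.12 in Hoxa-null and -2.03 in compound Hoxa-null. The library with 1 mutant Hoxa copy thus lay between WT and the nulls. Hoxa10 stood at 0.32, 0.27 and 0.21 in WT, Hoxd-null and compound Hoxd-null and at -0.48 and -0.55 in the nulls, so the groups did not overlap but were less than 1 log2 unit apart. Hoxa9 stood at -0.53, -0.09 and 1.13 in the intact libraries and at 0.09 and -0.19 in the nulls, within the range of the intact libraries. A mutant transcript can be made and counted where an allele leaves the coding unit in part, so Hoxa9 and Hoxa10 do not check the labels.

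The most posterior Hox genes were lower in both nulls although they lie outside the mutated blocks. Hoxa13 (Gene ID 15398, chromosome 6, start 52208852), which neighbours Hoxa11 and is needed for the terminal urogenital tract, was at 1.95 in WT, 1.60 in Hoxd-null and 2.26 in compound Hoxd-null, and at -1.60 and -1.66 in Hoxa-null and compound Hoxa-null. Hoxd13 (Gene ID 15433, chromosome 2, start 74506367), its paralogue in the other cluster, was at 0.80, 0.95 and 1.09 in the intact libraries and at -0.88 and -0.80 in the nulls. The nulls were nearly equal for both genes, and the compound Hoxd-null library had the highest value. In the caudal epididymis Hoxa13 was at -3.80 and Hoxd13 at -5.06, below every vas library. Hoxd12 did not separate, at 0.63, 0.43 and 0.77 against -0.43 and -0.45, though the groups did not overlap. These 2 Hox13 genes, of 4 listed, were the only measured members of that group.

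No anterior Hoxa gene and no Hoxc gene separated. Hoxa6 came nearest, at -0.43 in WT, 0.43 in Hoxd-null and -0.55 in compound Hoxd-null against 1.36 and 1.76 in the nulls, a gap of 0.92. Hoxa4 was at -2.05 in WT and -1.16 in Hoxd-null, but at 0.24 in compound Hoxd-null, -0.24 in Hoxa-null and 1.80 in compound Hoxa-null, so the groups overlapped. All 7 measured Hoxc genes had a null minus intact difference above 0, with a median of 0.70, and none separated. Their median was -1.10 in WT, -0.21 in Hoxd-null and 0.52 in compound Hoxd-null, against -0.08 and 0.27 in the nulls, so the library with 1 mutant Hoxa copy was the highest. Of 8 measured Hoxb genes, 0 separated and the median difference was -0.02. Hoxd1 was higher in both nulls, at 1.27 and 1.44 against -1.19, -1.19 and -0.82, but stayed under the minimum of reads.

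**Figure D2:**
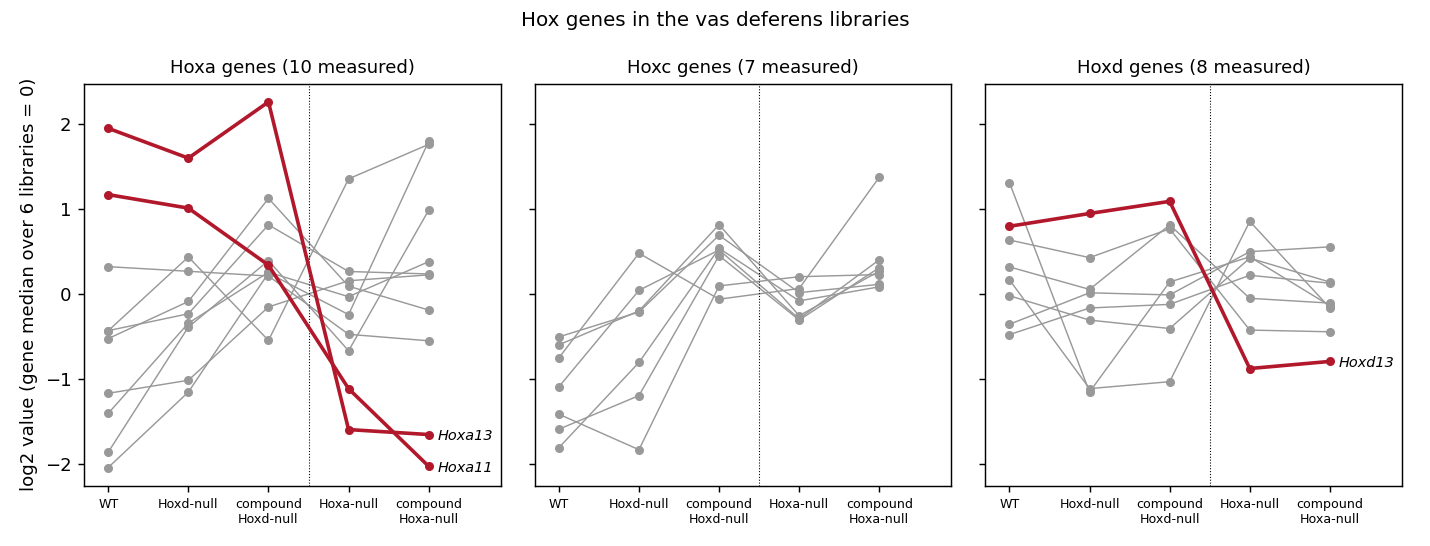
Log2 values of the measured Hoxa (10), Hoxc (7) and Hoxd (8) genes in the 5 vas deferens libraries, 1 line per gene, with the 3 intact libraries left of the dotted line and both nulls right of it. Hoxa11, Hoxa13 and Hoxd13 (red) drop across the line; the median of the Hoxc genes is lowest in WT, and no Hoxc gene separates.

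Most measured beta-defensins were higher in both nulls. Beta-defensins are small cationic peptides that the epididymis makes in large number and that coat sperm in mice. Of 41 listed genes, 26 were measured, 16 were higher and 1 was lower, against 4.01% and 2.23% of all measured genes, and the median difference was 2.07. The library medians were -1.46 in WT, -1.56 in Hoxd-null and -0.72 in compound Hoxd-null, 0.86 in Hoxa-null, 0.72 in compound Hoxa-null and 2.32 in the epididymis. Either null alone gave 17 higher genes, beside 4.98% of all measured genes for Hoxa-null and 7.5% for compound Hoxa-null. Lane 2 alone gave 20, beside 9.39%. A further 2 genes, Defb12 and Defb35, also separated upward but stayed under the minimum.

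Within the family, Defb14 was at -1.41 in WT, -3.27 in Hoxd-null and -1.25 in compound Hoxd-null, against 1.25 in Hoxa-null and 1.38 in compound Hoxa-null. Defb2 was at -1.69, -1.41 and -1.14 in the intact libraries and at 1.31 and 1.14 in the nulls. In both genes the nulls were nearly equal and more than 2 log2 units above the nearest intact library. Defb38 was at -2.85, -2.51 and -0.83 in WT, Hoxd-null and compound Hoxd-null and at 0.94 and 0.83 in the nulls, with 3.54 in the epididymis. Defb18 had 1 normalised read in WT and in Hoxd-null and 3.88 in compound Hoxd-null, against 30.2 and 10.2 in Hoxa-null and compound Hoxa-null. Defb30 went the other way, at 2.43, 1.10 and 1.20 in the intact libraries and -1.10 and -2.21 in the nulls. In 14 of the 16 higher defensins the compound Hoxd-null library was the intact library nearest to the nulls, and this was so for 303 of all 678 higher genes. Over the 26 measured defensins, that library lay a median of 0.89 above the mean of WT and Hoxd-null, against 0 over all measured genes. It is the library with 1 mutant Hoxa copy and also the only vas library of its sequencing run, which cannot be told apart. Defensins are similar in sequence and may share reads.

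A run of 7 neighbouring measured genes on chromosome 8, Defb1, Defb2, Defb10, Defb9, Defb11, Defb15 and Defb13, with starts from 22887071 to 23057234 in mm9, was higher throughout. Defb10 was at -1.84, -1.74 and -0.71 in WT, Hoxd-null and compound Hoxd-null and at 0.91 and 0.71 in the nulls. Defb9 was at -1.58, -1.54 and -0.99 against 1.11 and 0.99, and Defb11 at -1.57, -1.17 and -0.83 against 0.83 and 0.91. These neighbours have like patterns over the 5 libraries. Defb13, at the end of the run, was at -1.21, -0.12 and 0.12 against 1.56 and 1.82, and differed from its neighbours in being lower in the epididymis, at -1.06, than in either null.

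Of these 7 genes, 5 were matched to an upstream sequence, and Defb1 and Defb2 were not. The 250 bases before the start of the 5 are shown because the genes moved together and each stretch holds the letters of the core that posterior Hox proteins bind, TTTAT, here read on the opposite strand and set in capitals as ATAAA. The sequences come from RefSeq for the build GRCm38.p6 and run 5′ to 3′ on the strand of the gene. They lie at chr8:21858651-21858900 for Defb10 (plus strand), chr8:21885435-21885684 for Defb9 (minus), chr8:21906433-21906682 for Defb11 (minus), chr8:21932711-21932960 for Defb15 (minus) and chr8:21946505-21946754 for Defb13 (plus).
Defb10: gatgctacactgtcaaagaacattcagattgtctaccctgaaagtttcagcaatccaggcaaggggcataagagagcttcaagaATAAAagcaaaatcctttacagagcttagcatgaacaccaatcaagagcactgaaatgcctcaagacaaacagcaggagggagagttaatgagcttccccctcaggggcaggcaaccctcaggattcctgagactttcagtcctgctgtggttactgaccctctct
Defb9: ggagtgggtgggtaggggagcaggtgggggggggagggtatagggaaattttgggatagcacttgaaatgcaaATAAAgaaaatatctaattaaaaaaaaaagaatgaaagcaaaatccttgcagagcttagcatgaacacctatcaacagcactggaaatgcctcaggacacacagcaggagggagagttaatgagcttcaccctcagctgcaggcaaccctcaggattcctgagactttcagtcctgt
Defb11: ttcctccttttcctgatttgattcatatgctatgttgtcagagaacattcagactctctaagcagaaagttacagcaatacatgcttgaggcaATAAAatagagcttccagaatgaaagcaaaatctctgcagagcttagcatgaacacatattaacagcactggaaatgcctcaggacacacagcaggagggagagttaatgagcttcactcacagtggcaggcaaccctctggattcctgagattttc
Defb15: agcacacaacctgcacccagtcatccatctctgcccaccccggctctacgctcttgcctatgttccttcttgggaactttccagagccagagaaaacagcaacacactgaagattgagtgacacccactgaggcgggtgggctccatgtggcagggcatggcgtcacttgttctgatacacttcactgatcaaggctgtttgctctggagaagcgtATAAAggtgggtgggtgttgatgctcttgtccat
Defb13: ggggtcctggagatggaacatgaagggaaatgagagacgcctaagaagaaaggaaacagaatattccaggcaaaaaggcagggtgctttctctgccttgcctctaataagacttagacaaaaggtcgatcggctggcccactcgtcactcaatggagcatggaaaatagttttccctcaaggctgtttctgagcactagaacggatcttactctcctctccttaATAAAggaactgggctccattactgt

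Counted from the start site, the capitals begin at -166 in Defb10, -177 in Defb9, -157 in Defb11, -34 in Defb15 and -26 in Defb13. The match in Defb15 lies inside a TATAAA, the core of the TATA box, and so is not counted outside one below. The Defb10, Defb9 and Defb11 stretches share long runs of letters downstream of the match. TTTAT, searched on both strands, was present in 38.2% of the 474 higher genes with an upstream sequence, 30.6% of the 255 lower genes and 26.0% of all 12442 measured genes with a sequence. It overlaps TATAAA, which was present in 14.3%, 8.24% and 7.59% of the same sets. Outside a TATA box core, TTTAT was present in 29.1%, 24.3% and 21.05%. The sets differ in base composition, with a median GC content of 52.2% upstream of the higher genes, 58% of the lower genes and 58.8% of all. The part of base composition in the motif shares was not tested. CTTTGA, the core of Tcf and Lef sites, was present in 15.6%, 9.80% and 11.3%, and the cyclic AMP response element TGACGTCA in 1.90%, 1.18% and 2.56%. A match is a match of letters only.

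Protease inhibitors of the Wfdc, Spink and cystatin families, which guard sperm and epithelium against proteolysis, had a similar pattern. Of 24 measured members, 11 were higher and 2 lower, with a median difference of 1.91. On chromosome 2, Wfdc16, Wfdc9, Wfdc10 and Wfdc11 (starts 164460207 to 164488394, mm9) formed a run of 4 higher neighbours, and Wfdc12, Wfdc15a, Wfdc15b, Semg1, Svs3b and Svs4 (starts 164014967 to 164101692) a run of 6. Wfdc9 was at -1.33, -1.22 and -1.22 in WT, Hoxd-null and compound Hoxd-null and at 1.22 and 1.26 in Hoxa-null and compound Hoxa-null. Wfdc12 was at -2.70, -1.93 and 0.47 in the intact libraries and at 3.34 and 2.79 in the nulls, above its epididymal value of -0.47. By the rule the groups were apart in both genes, and Wfdc12 alone of the 2 was higher in the nulls than in the epididymis. Spink6 spanned -4.70, -1.96 and -0.45 in the intact libraries and was at 1.70 and 1.92 in the nulls. The lower members were Spink4, at 1.51, 1.35 and 1.22 against -1.93 and -2.87, and Slpi, a secreted leukocyte protease inhibitor, at 1.60, 1.52 and -0.01 against -1.13 and -1.71.

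Other secretory genes of the epididymis separated in both directions. Of 25 measured members of a list of epididymal secretory genes, 6 were higher and 2 lower, with a median difference of 1.43. Rnase9, a secreted member of the ribonuclease family found in the epididymis, was at -4.29, -3.18 and -0.79 in the intact libraries and at 0.79 in both nulls. Spag11a, a defensin-like sperm-binding gene, was at -3.37, -1.26 and -1.45 against 1.49 and 1.26. The nulls were again nearly equal in both genes. Ptgds, Spag11b, Rnase12 and Crisp1 were the other higher genes. Lcn5, an epididymal lipocalin, was lower, at 0.80, 0.90 and 0.60 against -0.60 and -1.38, and so was Ros1, the receptor tyrosine kinase needed for the initial segment in mice, at -0.12, 0.47 and 0.12 against -1.73 and -1.27. The caudal epididymis had -2.41 for Lcn5 and 0.17 for Ros1. The gene for glutathione peroxidase of the epididymal fluid and plasma, Gpx3, was at -1.36, -0.79 and -0.84 against 0.79 and 0.83. Gstm5, Gstm6 and Gstm7 were also higher. Of 33 measured genes of glutathione use and detoxification, 4 were higher and 0 lower, beside 4.01% and 2.23% of all measured genes.

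Clear cells, the proton-secreting cells that acidify the lumen of the epididymis and vas deferens, had 12 measured genes with 5 higher and 0 lower. The forkhead factor Foxi1 (Gene ID 14233, chromosome 11, start 34104341), which drives the genes of the proton pump, was at -2.58 in WT, -1.54 in Hoxd-null and -0.52 in compound Hoxd-null, against 0.52 in Hoxa-null and 1.07 in compound Hoxa-null. The pump subunit Atp6v1b1 was at -2.35, -2.13 and -0.60 against 0.60 and 1.16. The order of the 5 libraries in these 2 genes was WT, Hoxd-null, compound Hoxd-null, Hoxa-null and compound Hoxa-null, with the epididymis highest at 2.34 and 2.07. Atp6v1g3, Atp6v0d2 and Dmrt2 had the same order, and compound Hoxd-null was the intact library nearest to the nulls in 5 of 5. Slc4a1 and Rhbg, chosen after their values were seen, had differences of -1.53 and -0.64, and Slc26a4, under the minimum, separated downward, so the list did not move as a whole. Among genes of the principal cells of the vas deferens and caudal epididymis, 4 of 24 measured were higher and 0 lower. Over all measured genes these shares were 4.01% and 2.23%. The carbonic anhydrase Car2 was at -0.90, -1.36 and -1.55 against 0.90 and 1.57, and the membrane-bound Car4 was at -2.22, -5.52 and -0.69 against 0.69 and 2.80. The bicarbonate exchanger Slc26a3 was at -0.81, -0.57 and -0.59 against 0.57 and 0.61.

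**Figure D3:**
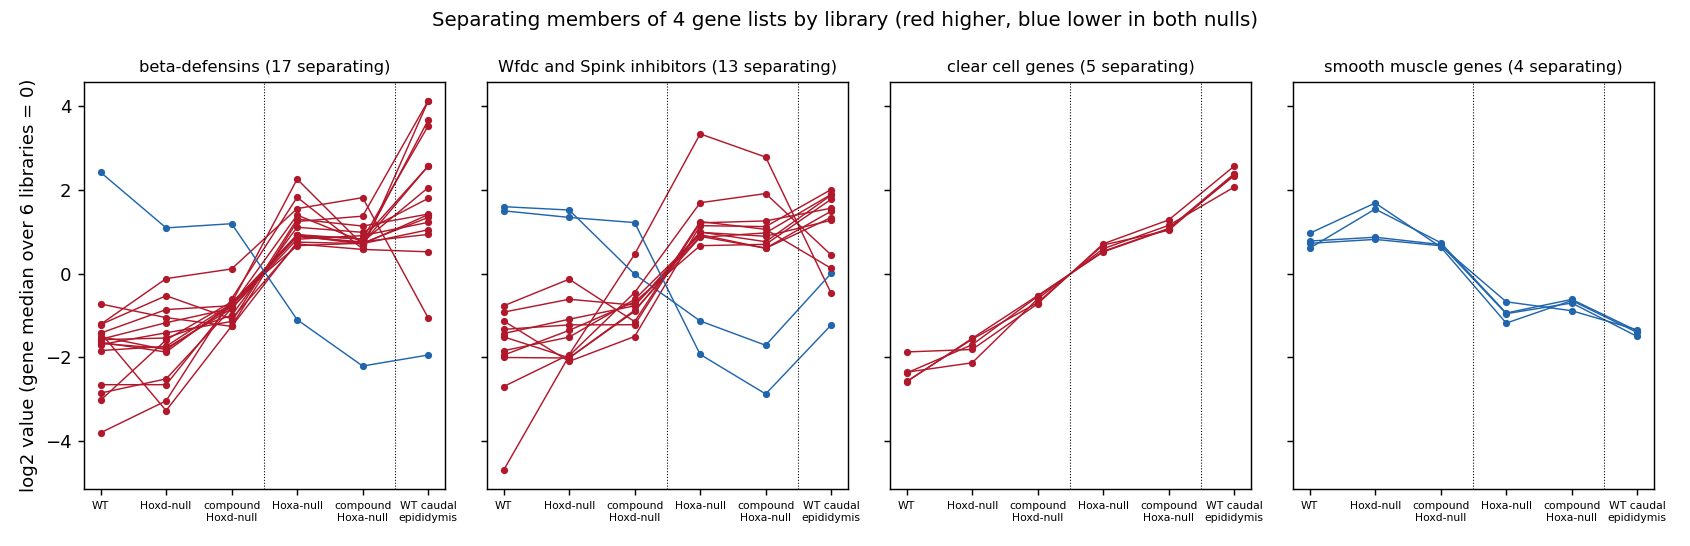
Log2 values of the separating members of 4 gene lists in the 5 vas deferens libraries and the WT caudal epididymis, 1 line per gene, red where higher and blue where lower in both nulls; dotted lines part intact libraries, nulls and epididymis. The 5 clear cell genes climb stepwise from WT to the epididymis, and the 4 smooth muscle genes lie lower in the nulls and the epididymis than in the intact libraries.

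Seminal vesicle and prostate secretory genes, which are made in neighbouring glands, had 18 measured members with 6 higher and 0 lower. Svs4, a seminal vesicle secretory protein, was at 0.19 in WT, -0.86 in Hoxd-null and -0.19 in compound Hoxd-null, against 3.77 and 3.30 in the nulls and -2.59 in the epididymis. Svs5 was at 0.13, -0.13 and -0.58 against 3.32 and 2.77, and Pate4, also abundant in seminal vesicle, at -0.03, 0.03 and -0.56 against 3.00 and 3.04. For these genes the nulls stood apart from the intact libraries and from the epididymis alike. Svs3b, Svs6 and Pate2 were the other higher members, and the members Pbsn and Tgm4 described above were highest in WT. Whether tissue of the glands was present in the pools was not tested. In bulk RNA a different number of cells of a type and a different amount of RNA per cell cannot be told apart.

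Of 30 measured contractile genes of smooth muscle, 4 separated downward and 0 upward, beside 2.23% and 4.01% of all measured genes. All 30 had a null minus intact difference below 0, with a median of -1.02. Over all measured genes, 8112 of 16917 had a difference below 0. Myocd, the coactivator that drives smooth muscle genes, was at 0.78, 0.87 and 0.70 in WT, Hoxd-null and compound Hoxd-null and at -0.95 and -0.70 in Hoxa-null and compound Hoxa-null. Cacna1c, the pore of the L-type calcium channel, was at 0.61, 1.55 and 0.74 against -0.94 and -0.61. Ryr2, a calcium release channel, was at 0.97, 1.69 and 0.64 against -1.18 and -0.64, and Hspb6, a small heat shock protein of muscle, at 0.73, 0.82 and 0.67 against -0.67 and -0.88. The nulls were less than 1 log2 unit apart in each of these 4 genes. Common contractile genes, chosen after their values were seen, did not reach the threshold because compound Hoxd-null stood between the groups. Actg2, enteric smooth muscle actin, was at 1.19, 1.40 and 0.25 against -0.25 and -0.62, and Cnn1, calponin, at 1.17, 1.04 and 0.09 against -0.09 and -0.41. The library medians of the list were 0.66 in WT, 0.99 in Hoxd-null, 0.27 in compound Hoxd-null, -0.40 in Hoxa-null, -0.42 in compound Hoxa-null and -0.93 in the epididymis. Against the Hoxd-null library alone, which is an easier rule, 23 of 30 were lower in both nulls, beside 5.01% of all measured genes.

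Potassium channel genes, which set the excitability of muscle and nerve, separated in both directions. Of 66 measured, 11 were lower and 5 higher, beside 2.23% lower and 4.01% higher over all measured genes. Their median difference was -0.48. Kcnv2 (Gene ID 240595, chromosome 19, start 27397109), a silent subunit that modifies other voltage-gated channels, had 386.4, 140.6 and 282.0 normalised reads in WT, Hoxd-null and compound Hoxd-null, 1.84 in Hoxa-null and 1 in both compound Hoxa-null and the epididymis. Kcnj1, an inward rectifier, had 7.04, 24.5 and 32.3 normalised reads in the intact libraries and 1 in both nulls. Both genes were at or close to the floor in every library outside the intact group. Kcnc1, a fast voltage-gated channel, was at 2.09, 2.36 and 1.48 against -1.48 and -2.36. Other lower members were Kcnq5, Kcnn3, Kcnk3, Kcnd2, Kcnj2, Kcns3 and Kcnf1, several of which are known from smooth muscle or neurons. Higher members were Kcnd1, at -1.86, -1.85 and -1.24 against 2.11 and 1.24, and Kcnc4, Kcnn4, Kcna7 and Kcnj11.

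The 2 widest gaps of all were those of the lower genes Grid1 and Kcnv2 (6.25), and the widest of a higher gene was 5.82. Grid1 (Gene ID 14803, chromosome 14, start 35633322), which encodes a delta-type glutamate receptor, was at 3.56 in WT, 3.33 in Hoxd-null and 4.46 in compound Hoxd-null and at -3.49 and -3.99 in the nulls, a gap of 6.82. Nsg2, a vesicle protein of neurons, was at 2.97, 3.36 and 1.99 against -3.47 and -2.90. Nmu, neuromedin U, was at 4.05, 2.32 and 1.61 against -1.61 and -2.26, and Ntsr1, a neurotensin receptor, at 1.74, 2.21 and 1.92 against -1.74 and -1.79. These 4 genes were taken from the lower genes with the widest gaps, so their gaps of more than 3 log2 units follow from that choice. The epididymis was on the side of the nulls in all 4, at -3.33, -1.99, -2.65 and -2.18. Itga2, a collagen-binding integrin, Ptprz1, a receptor tyrosine phosphatase, Hpse2, a heparanase relative, and Padi2, a peptidylarginine deiminase, were also among the 30 lower genes with the widest gaps, with the epididymis between -5.33 and -3.85 for these 4.

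Wnt pathway genes were found on both sides, with 4 of 52 measured higher and 6 lower, beside 4.01% and 2.23% of all measured genes. Their median difference was -0.12. Wif1 (Gene ID 24117, chromosome 10, start 120471286), a secreted inhibitor that binds Wnt ligands, was at 1.41 in WT, 1.67 in Hoxd-null and 0.43 in compound Hoxd-null, against -3.97 in Hoxa-null and -7.17 in compound Hoxa-null, with -0.43 in the epididymis. Both nulls thus lay below the vas and the epididymal libraries, and the compound library far below the other null. Dkk2, another secreted antagonist, was at 0.51, -0.11 and 0.35 against -2.20 and -2.23. Lgr5 and Lgr6, receptors for R-spondin, were lower, Lgr5 at 2.06, 0.98 and 1.36 against -1.25 and -0.98 and Lgr6 at 0.53, 1.47 and 0.55 against -0.53 and -0.54. The ligand Wnt9b, which the Wolffian duct makes in the embryo, was at 0.07, 0.75 and 1.02 against -1.21 and -1.27. Wnt3 had 4.94, 6.65 and 20.5 normalised reads in the intact libraries and 1 in both nulls. On the higher side, Sp5 and Axin2 are known targets of Wnt signalling. Sp5 was at -1.48, -1.42 and -1.28 against 1.71 and 1.28, and Axin2 at -1.86, -1.68 and -0.63 against 0.67 and 0.63. The receptor Fzd10 and the ligand Wnt10b were the other higher genes.

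For other developmental signals the counts were too small to set apart from the 4.01% higher and 2.23% lower of all measured genes. Of 43 measured genes of FGF, Hedgehog and Notch signalling, 2 were higher and 1 lower. The Hedgehog ligand Ihh (Gene ID 16147, chromosome 1, start 74991892) was at -2.18 in WT, -3.34 in Hoxd-null and -1.52 in compound Hoxd-null, against 1.52 and 1.65 in the nulls and 2.36 in the epididymis. Hes5, a Notch target, was at 1.50, 2.13 and 1.36 against -2.76 and -1.36, and Fgf12 was the other higher gene. Of 52 measured BMP, GDF and TGF-beta genes, 1 was higher and 3 were lower. The lower genes included the antagonist Sost, at 0.78, 1.14 and 0.65 against -0.82 and -0.65, and Amhr2, the receptor for anti-Müllerian hormone. Among 38 measured factors of duct patterning, Eya1, at 0.91, 1.05 and 1.49 against -1.30 and -0.91, and Foxf2, at 0.91, 0.68 and 0.64 against -0.64 and -0.95, were lower. Sall4 was higher, at -0.41, -0.93 and -1.12 against 1.10 and 1.77. Both lower factors were lower still in the epididymis, at -5.09 for Eya1 and -4.62 for Foxf2. Retinoic acid genes (23 measured), Hox cofactors (9) and interferon-induced genes (26) had 0 separating members. Pde11a (Gene ID 241489, chromosome 2, start 75829189), a cyclic nucleotide phosphodiesterase that belongs to none of these lists, had the widest gap of all higher genes, 5.82. It was at -1.92, -2.34 and -0.87 in the intact libraries, 5.18 and 4.96 in the nulls and 0.87 in the epididymis.

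Transcripts of germ cells separated in both directions. Among the 30 higher genes with the widest gaps were Tekt3, Mael, Clgn, Adam3 and Actl7b, which are known from spermatocytes or spermatids, and in each of them the compound Hoxa-null library was far above the Hoxa-null library. Tekt3, a tektin of the sperm tail, had 1 normalised read in each intact library, 29.5 in Hoxa-null and 187.0 in compound Hoxa-null. Mael, which acts in the silencing of transposons in male germ cells, was at -2.48, -2.33 and -2.34 against 2.33 and 5.26. Ldhc (Gene ID 16833, chromosome 7, start 54116633), the lactate dehydrogenase of male germ cells, was at -2.02, -2.82 and -2.42 against 2.02 and 4.58, and Ddx4, a germ cell helicase, at -1.95, -3.44 and -1.49 against 1.49 and 4.52. These genes were named because they separated, so both nulls lay above every intact library, and the compound Hoxa-null library lay farthest. Genes named after RIKEN clones of adult testis made up 80 of the 678 higher genes (11.8%), 9 of the 377 lower genes (2.39%) and 353 of all measured genes (2.09%). A gene near the floor in the intact libraries could reach the minimum only through the nulls. The share among the higher genes is thus not independent of the rule. The median of those 80 was 1.10 in Hoxa-null and 4.28 in compound Hoxa-null, and between -1.24 and -1.23 in the intact libraries. Of these 80 genes, 77 were in the group in which the compound library lay 1 or more log2 units above the Hoxa-null library.

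On the lower side were Prm1, Prm2 and Odf1. Prm2 (Gene ID 19119, chromosome 16, start 10791474), a protamine that packs sperm DNA, was at 0.56 in WT, -0.56 in Hoxd-null and 1.23 in compound Hoxd-null, against -4.80 and -4.57 in the nulls and 3.97 in the epididymis. Prm1 was at 0.89, -0.84 and 0.84 against -3.46 and -4.26, and Odf1, an outer dense fibre protein of the tail, at -0.24, 0.24 and 0.82 against -3.86 and -1.41. By the rule, both nulls were below all intact libraries for the 3 genes. Of 19 measured germ cell and sperm markers, 4 were higher (Ldhc, Ddx4, Dazl and Acrv1, the last an acrosomal protein of spermatids) and 3 lower, with a median difference of -0.01. The transition protein genes Tnp1 and Tnp2, chosen after their values were seen, had differences of -2.12 and -3.04 without separating. Whether the number or stage of germ cells in the duct accounts for these values was not tested.

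Most skeletal muscle genes were higher in the nulls, and they varied among the intact libraries as well. Of 16 measured markers, 10 were higher and 0 lower, and 4 had a difference below 0. The median difference was 3.06, and 1.39 against WT alone. Myh4 (Gene ID 17884, chromosome 11, start 67051227), the heavy chain of fast fibres, was at 1.79 in WT, -2.89 in Hoxd-null and -3.14 in compound Hoxd-null, against 6.17 and 6.14 in the nulls and -1.79 in the epididymis. Atp2a1, the calcium pump of fast fibres, was at 1.52, -3.88 and -3.58 against 3.85 and 3.69. WT lay between the other intact libraries and the nulls for both genes, and the nulls were nearly equal. Mstn, the muscle growth inhibitor and the higher gene of the BMP list, had 6.34, 1 and 1 normalised reads in the intact libraries and 82.0 and 91.1 in the nulls. Markers of other cells were compared as well. Adipocyte genes had 0 of 10 separating with a median difference of 1.63, and compound Hoxd-null was as high as the nulls, with Adipoq at -1.17 in WT, -1.12 in Hoxd-null, 1.12 in compound Hoxd-null, 1.47 in Hoxa-null and 1.48 in compound Hoxa-null. Of 8 measured B and plasma cell markers 5 were lower and 0 higher, with Ms4a1 at 2.13, 0.56 and 0.16 against -2.39 and -1.72, and of 11 T and NK cell markers 3 were lower, with Cd8a at 0.77, 0.33 and 0.65 against -1.05 and -0.75. Of 11 measured Schwann cell and neuron markers, 2 were higher and 1 was lower, and 8 had a difference below 0, with a median of -1.10. Sox10, the factor of Schwann cells, was lower, at 1.15, 0.49 and 1.20 against -1.32 and -1.28, whereas Th and Dbh, enzymes of catecholamine synthesis, were higher. The share of these cells in the other differences was not tested.

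**Figure D4:**
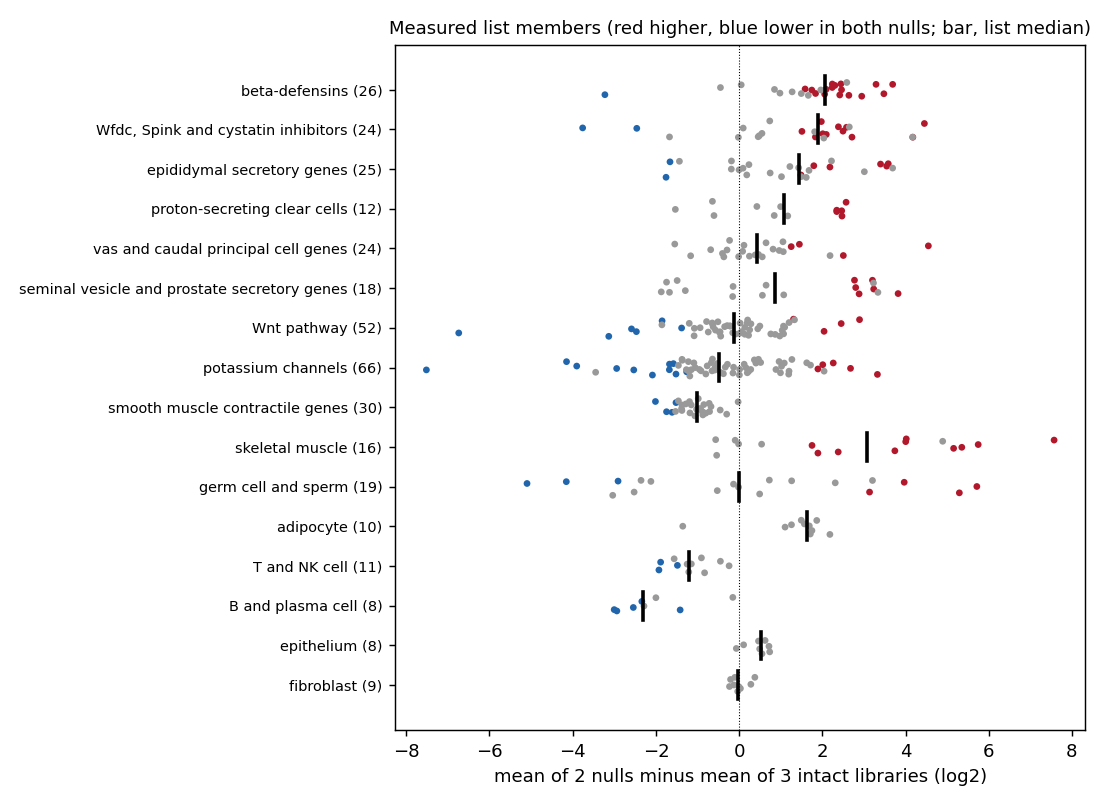
Null minus intact difference (log2) of every measured member of 16 gene lists, with the number measured in brackets; red points were higher and blue points lower in both nulls, and the black bar is the list median. Defensins and protease inhibitors lie mostly right of 0 and all 30 smooth muscle genes left of it, and germ cell markers spread to both sides.

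Steroid genes included a few separating members. Of 20 measured, 3 were higher and 1 lower, beside 4.01% and 2.23% of all measured genes. Cyp21a1, steroid 21-hydroxylase, was at 0.56, -1.40 and -0.56 against 3.64 and 3.39, with -3.58 in the epididymis. Cyp17a1 and Hsd17b3, enzymes of androgen synthesis that are also Leydig cell markers, were higher, Cyp17a1 at -2.11, -1.67 and -0.76 against 0.76 and 3.75 and Hsd17b3 at -3.80, -1.19 and -0.62 against 2.14 and 0.62. The nulls differed from each other in the last pair, in opposite directions. Of the other Leydig cell markers measured, Star and Insl3, chosen after their values were seen, had differences of -0.17 and 0.17. Nr3c2, the mineralocorticoid receptor, was lower, at 0.55, 1.16 and 0.95 against -0.87 and -0.60.

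**Figure D5:**
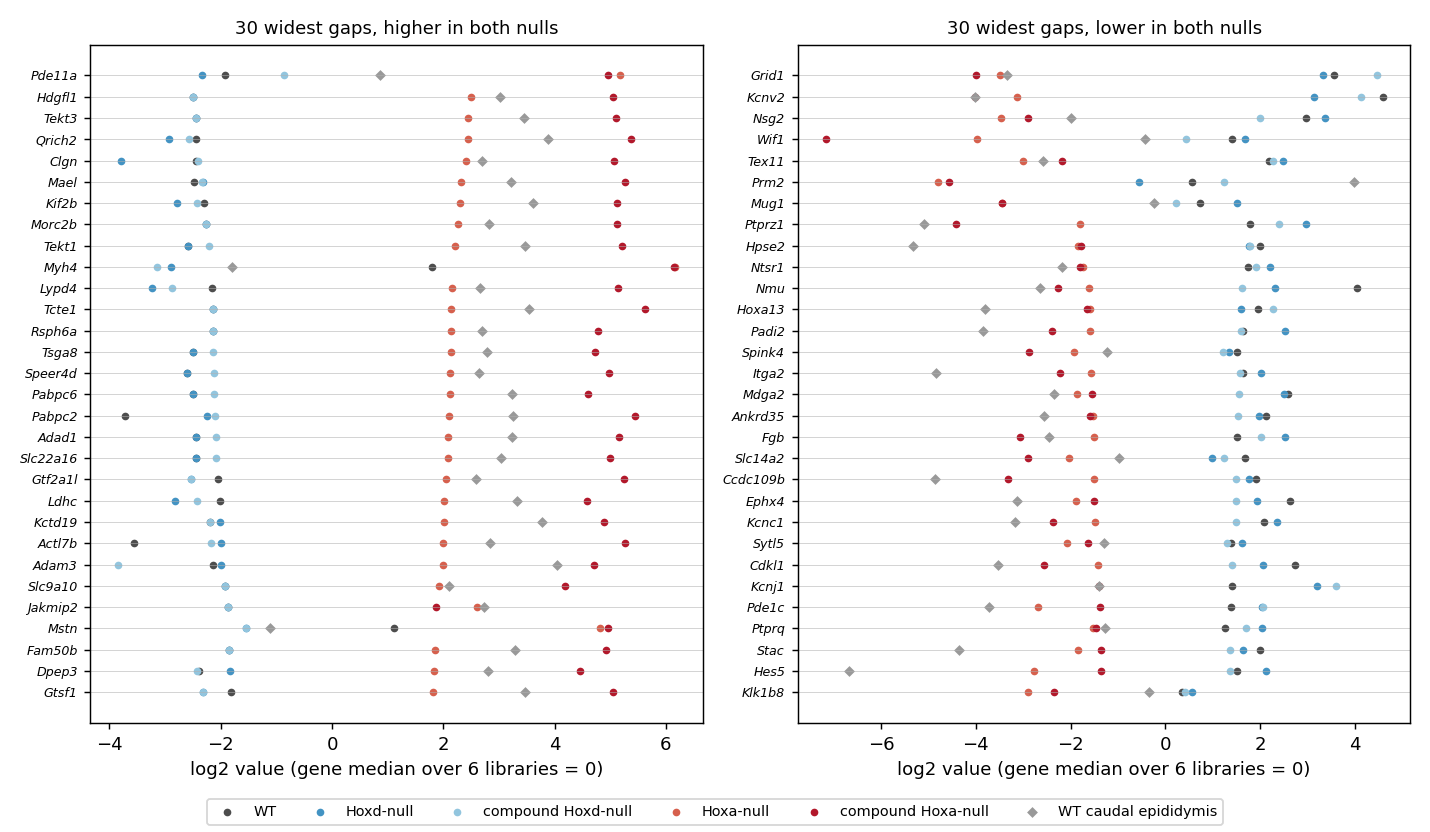
Log2 values in the 5 vas deferens libraries (circles) and the WT caudal epididymis (grey diamonds) of the 30 genes on each side that were farthest apart between the groups, ordered by gap. On the left the compound Hoxa-null points lie right of the Hoxa-null points for most genes, and on the right both nulls lie close together for most genes.

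The epididymis was not part of the rule. Over the 678 higher genes its median was 1.89, with intact medians of -1.25 in WT, -1.31 in Hoxd-null and -0.95 in compound Hoxd-null and null medians of 1.12 in Hoxa-null and 2.43 in compound Hoxa-null. Over the 377 lower genes its median was -1.02, with 0.95, 0.85 and 0.74 in the intact libraries and -1.05 and -1.11 in the nulls. The epididymal and the null values are set against the same intact libraries, and these medians are side by side only. Single genes departed from these medians, such as Svs4, Pde11a and Myh4, which were far higher in the nulls than in the epididymis, and Wif1 and Prm2, which were far lower.

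Applied to the uterus, the same rule gave 160 higher (0.968%) and 183 lower genes (1.11%) of 16535 measured. Of 15601 genes measured in both tissues, 315 were higher in the vas pair and 135 in the uterus pair, and 13 were in both. That is 4.13% of the vas list, beside 0.865% of all genes higher in the uterus. It is 9.63% of the uterus list, beside 2.02% of all genes higher in the vas deferens. Lower genes numbered 317 and 133 with 14 shared. That is 4.42% of the vas list, beside 0.853% of all genes lower in the uterus. It is 10.53% of the uterus list, beside 2.03% of all genes lower in the vas deferens. Opposite directions were found for 12 genes higher in the vas deferens and lower in the uterus (3.81% of the vas list, beside 0.853% of all genes) and for 8 genes the other way (2.52%, beside 0.865%). The vas genes measured in both tissues had median uterine differences of -0.09 for the higher and 0.10 for the lower set. Shared lower genes, chosen after their values were seen, included Hoxa11, with differences of -2.41 in vas deferens and -2.59 in uterus, Wif1 with -6.74 and -2.83, the neuropeptide Grp with -2.81 and -3.28, and the cytokine Tnf with -2.05 and -2.41. Shared higher genes included the organic anion transporter Slco1a5, with 2.96 and 4.42, Fgfbp1, a carrier of FGF ligands, with 1.94 and 3.35, and the receptor Ret with 1.75 and 2.05. Beta-defensins, of which 6 were measured in the uterus, had 0 separating there and a median difference of -0.46. Of 29 measured smooth muscle genes 0 separated in the uterus, with a median of 0.37.

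Near the threshold, the higher genes just inside were Oit1, Stt3b and Wnt10b, and those just outside were Gpt2, Tsga10ip and Fitm1, with gaps that all round to 1. On the lower side Fam49a, Gnaz and Pde4d lay just inside and Nmnat2 was among those just outside. By chromosome, the share of higher genes was 7.83% on X (49 of 626) and between 2.69% and 5.01% on the autosomes, and the share of lower genes was 0.958% on X and between 0.592% and 3.55% on the autosomes.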

How the data were processed

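RNA sequencing values of 5 vas deferens libraries, the WT caudal epididymis and 5 uterus libraries were used. The submitters' processing notes name TopHat and the build mm9. The counting, the annotation and the scaling were not given in the sources used here. The authors deposited log2 values, matched here by Gene ID, centred gene by gene on the 6 libraries of a sex, with no read counts or totals. Run and lane were taken per the file headers. The spacing of low values showed that, before centring, each library's reads carried a common factor and no value was below 1 normalised read (the floor). Levels in normalised reads are printed only for genes with 2 or more of 6 libraries at that floor. The minimum of 20 normalised reads could act only on readable levels, so 16023 measured genes (94.7%) passed unread. Since totals are unknown, no counting interval is given, and low values move in coarse steps. Because the values were on a log2 scale, no pseudocount was added. Level recovery and the separation rule were tested on simulated reads that hold no variation between animals, pools or lanes. The simulation cannot show how often libraries separate without an effect of genotype.

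Libraries were grouped from the labels. Named genes are all Hox genes, the 30 genes on each side farthest apart between the groups (predicted transcripts left out), separating list members, the 4 largest differences of lists with none, and the genes nearest the threshold. Members, lists and this rule were chosen with earlier results of these data known, and any other gene is named as chosen after its values were seen. The 233 symbols shared by more than 1 gene were named only where 1 of them was measured. Promoter sequences were matched by Gene ID to RefSeq (GRCm38.p6) and no coordinate was converted between builds. A few genes that this rule names are not reported here. Alternatives varied the threshold, minimum, scaling and libraries. Python 3.11.15, numpy 2.4.6, pandas 2.3.3 and matplotlib 3.10.9 were used.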

Additional observations from a re-analysis of the deposited data

Results flagged for a closer look

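For 16 named genes the null pair lay on opposite sides of the intact libraries in the vas deferens and in the uterus, by 1 log2 unit or more in every library of both tissues. The difference between the tissues was not tested, and values are null minus intact differences in log2 units. Higher in the vas deferens and lower in the uterus were Art5 (3.73 and -2.52), Aspg (2.79 and -3.66), the proton pump subunit gene Atp12a (2.74 and -2.74) and the steroid 21-hydroxylase gene Cyp21a1 (3.98 and -4.55). The same direction was found for Eef1a2 (5.20 and -3.18), a translation factor of muscle and neurons, for Entpd8 (1.89 and -3.60), for Sectm1b (2.96 and -2.79) and for Sp5 (2.89 and -2.93), the Wnt target.

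Lower in the vas deferens and higher in the uterus were Cdkl1 (-4.05 and 1.66), the bile acid receptor gene Gpbar1 (-2.52 and 2.26), the kinesin gene Kif5c (-2.19 and 1.997) and the kallikrein gene Klk1b8 (-3.06 and 2.29). N28178 (-1.86 and 1.57), Nptx1 (-1.73 and 1.92), Serpinb2 (-1.99 and 2.96) and the protease inhibitor gene Spink4 (-3.76 and 2.41) had the same direction.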

How the results depend on the processing

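The 785 higher and 450 lower genes became 262 and 95 at 2 log2 units, 1517 and 1164 at 0.5, and 1786 and 1053 with the libraries of lane 2 alone, which have a single intact library. Without genes that have a library at the floor, 487 and 370 were left. Restricting the count to genes whose level could be read and reached the minimum, an alternative chosen after seeing the data, left 259 and 64, because most genes have no readable level. Leaving out 1 library gave from 942 to 1737 higher and from 596 to 785 lower genes, the most without Hoxa-null for the higher and without compound Hoxa-null for the lower genes, and a rule with fewer libraries is easier to meet. Equal medians gave 776 and 463 and trimmed means 777 and 466, and the largest shift was 0.0138 log2 units. Of 46 list medians, 30 moved by less than the SD of the intact libraries with WT alone as reference and 16 by more, and all 46 by less with equal medians. Of 276 named genes that were measured or separated, 175 moved by less than the SD of the intact libraries with WT as reference and 101 by more, and 9 moved by more with equal medians. None of these genes that separated changed sign under either setting, but this was fixed in advance. The rule places both nulls at least 1 log2 unit from WT on the same side, and the largest median shift was 0.0068 log2 units. With WT as reference the sign changed for Hoxa9 (from -0.22 to 0.48), Hoxd11 (from 0.05 to -1.16), Hoxb3, Hbb-b1 and Cd14, and for the medians of the Hoxb (from -0.02 to 0.23), Hoxd (from 0.24 to -0.11) and Leydig cell (from 0.17 to -0.02) lists. With equal medians it changed for Hoxc4 and the Hox cofactor list, both within 0.01 of 0. No paired analysis was possible because each genotype has a single library.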
